A study of Mus musculus with 6 samples.

Results

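Deletion of Trem2 was examined in microglial nuclei from the hippocampus of mice that carry the tau mutation P301S and human APOE4. The comparison set the library labelled P301S/E4/TREM2- (tau P301S, APOE4, Trem2 deleted) against the library labelled P301S/E4/TREM2+ (tau P301S, APOE4, Trem2 present), called TREM2- and TREM2+ here. Nuclei were kept when they had at least 200 detected genes, at most 5% of their transcript counts (UMIs, unique molecular identifiers) from mitochondrial genes, and fewer than 3 UMIs summed over the border-associated macrophage genes F13a1, Mrc1, Cd163, Cd209f and Cbr2. These filters left 12805 of the 13605 nuclei deposited for the pair, 6756 from TREM2- and 6049 from TREM2+. All 6 libraries of the series held 33335 deposited nuclei. Mice were 9.5 months old, and each library pooled the hippocampi of 3 mice. Nuclei were sorted for PU.1, the myeloid transcription factor encoded by Spi1, and profiled with 10x Genomics v3.1 chemistry. The other 4 libraries crossed the same Trem2 genotypes with tau P301S without Apoe (P301S/EKO) and with APOE4 without mutant tau (E4). By its title, the study concerned microgliosis that does not depend on TREM2. The promoter driving mutant tau, the Trem2 allele and its deleted part were not given in the sources used here, and human APOE and human MAPT had no features of their own in the count matrices.

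TREM2 is a lipid- and lipoprotein-sensing receptor of microglia that signals through the adaptor TYROBP (DAP12), whose phosphorylated ITAM motif recruits the kinase SYK. In mouse models of amyloid deposition it is known for the passage of microglia from a first to a second stage of the disease-associated (DAM) programme, in which homeostatic genes are reduced and genes of lipid handling, lysosomes and growth factors are induced. APOE is one of its ligands and is itself a gene of that programme.

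Each side was 1 library, so the spread between animals was not measured and no test between genotypes could be made. Ratios are TREM2- over TREM2+ in CPM, a gene's UMIs scaled to the UMI total of its library, on the log2 scale. The exact 95% intervals printed beside them cover counting error only. Values are called higher or lower as measured in these 2 pools.

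The TREM2- library held 7836393 UMIs after the filters and the TREM2+ library 5529754, with medians of 911 and 774 UMIs per nucleus. Mitochondrial UMIs above the limit removed 334 nuclei in TREM2- and 81 in TREM2+, and the macrophage genes removed 253 and 138 nuclei. Malat1, an abundant nuclear RNA, took 15.6% of UMIs in TREM2- and 18.6% in TREM2+. The pair shared 12 cell barcodes, within the range of 5 to 13 over the 15 pairs of libraries. Xist and Tsix, transcribed from the X inactivation centre, had 9 UMIs in TREM2- and 15 in TREM2+, whereas the Y-linked genes had 6869 and 4260 UMIs. All 23 microglia markers listed reached 100 UMIs over the pair, and their median log2 ratio was 0.13. Nuclei with at least 10 UMIs of neuronal markers, and more of these than of microglia markers, numbered 16 in TREM2- and 8 in TREM2+.

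Trem2 (ENSMUSG00000023992, chr17:48346401-48354147, plus strand, GRCm38) was the check of the labels. It had 588 CPM in TREM2- against 1127 CPM in TREM2+, a log2 ratio of -0.94 (-0.99 to -0.88) from 4610 and 6231 UMIs. In the other pairs it had 473 CPM in P301S/EKO/TREM2- against 987 CPM in P301S/EKO/TREM2+, and 360 CPM in E4/TREM2- against 934 CPM in E4/TREM2+. Trem2 was therefore lower in the deleted library of each of the 3 pairs, but its RNA was counted in all of them. Chemistry that reads the 3′ end counts transcripts whether or not an upstream exon is missing, so these counts do not show whether an intact transcript remained. With each nucleus thinned to 500 UMIs, 25.1% of TREM2- nuclei had a Trem2 UMI against 42.8% of TREM2+ nuclei. In 156 neuron-marker nuclei of the 6 libraries, used as a gauge of free RNA, the share was 1.92%. Of the 24 in the pair itself none had one, which allows up to 14.2%. Trem2 is 1 of the microglia markers that had to be outnumbered in these nuclei, so their selection can lower this share.

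Most of the receptor's signalling partners lay within 2-fold between the libraries. Tyrobp had 474 CPM in TREM2- and 601 CPM in TREM2+, a log2 ratio of -0.34 (-0.41 to -0.27). The signalling list (adaptors, kinases, phospholipase and proteases that shed the receptor) had 30 of 32 members with at least 100 UMIs, and their median log2 ratio was 0.13. Of these, 1 was at least 2-fold lower, beside a background of 1.42% of all genes, and 1 at least 2-fold higher, beside 1.21%. The lower one was Fgr, a Src-family kinase, with 78.0 CPM in TREM2- and 212 CPM in TREM2+. Fgr was also lower without Trem2 in the other pairs, at 31.4 CPM in P301S/EKO/TREM2- against 128 CPM in P301S/EKO/TREM2+ and 9.71 CPM in E4/TREM2- against 16.1 CPM in E4/TREM2+. The higher one was Dok3, an inhibitory adaptor, with 60.6 CPM in TREM2- and 26.4 CPM in TREM2+. Syk had a log2 ratio of 0.32, Plcg2, a phospholipase downstream of it, 0.45, and Inpp5d, the lipid phosphatase SHIP1, 0.36. Within the Trem gene cluster, Treml1 had 15.4 CPM in TREM2- and 3.07 CPM in TREM2+, or 121 and 17 UMIs. Treml1 was likewise at 7.69 CPM in P301S/EKO/TREM2- against 1.65 CPM in P301S/EKO/TREM2+, and at 10.5 CPM in E4/TREM2- against 5.85 CPM in E4/TREM2+. Treml2 had a log2 ratio of 0.11, and Treml6 is not analysed here.

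Across the transcriptome, 9927 genes had at least 100 UMIs over the pair. Of these, 141 (1.42%) were at least 2-fold lower in TREM2-, 120 (1.21%) were at least 2-fold higher, and 9666 lay within 2-fold. Without nuclei holding at least 3 neuronal-marker UMIs, 101 genes were lower and 123 higher. Without astrocyte- and oligodendrocyte-marker nuclei there were 99 and 118, and without monocyte-marker nuclei 114 and 113. At no more than 1% mitochondrial UMIs there were 99 and 121. The excess of lower over higher genes thus depended on the nuclei kept. The median log2 ratio of all 9927 genes was 0.06, with 5724 genes above 0 and 4203 below. The intervals of 4152 genes did not hold 0, but these intervals cover counting error and not the spread between pools or mice. Thinning each nucleus to 500 UMIs kept the direction of 139 of the 141 lower and of 120 of the 120 higher genes, with 100 and 103 of them still past 2-fold. Of the 261 genes past 2-fold, 240 were detected in under 5% of nuclei in both libraries, so most of the large ratios belonged to sparsely detected genes.

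**Figure D1:**
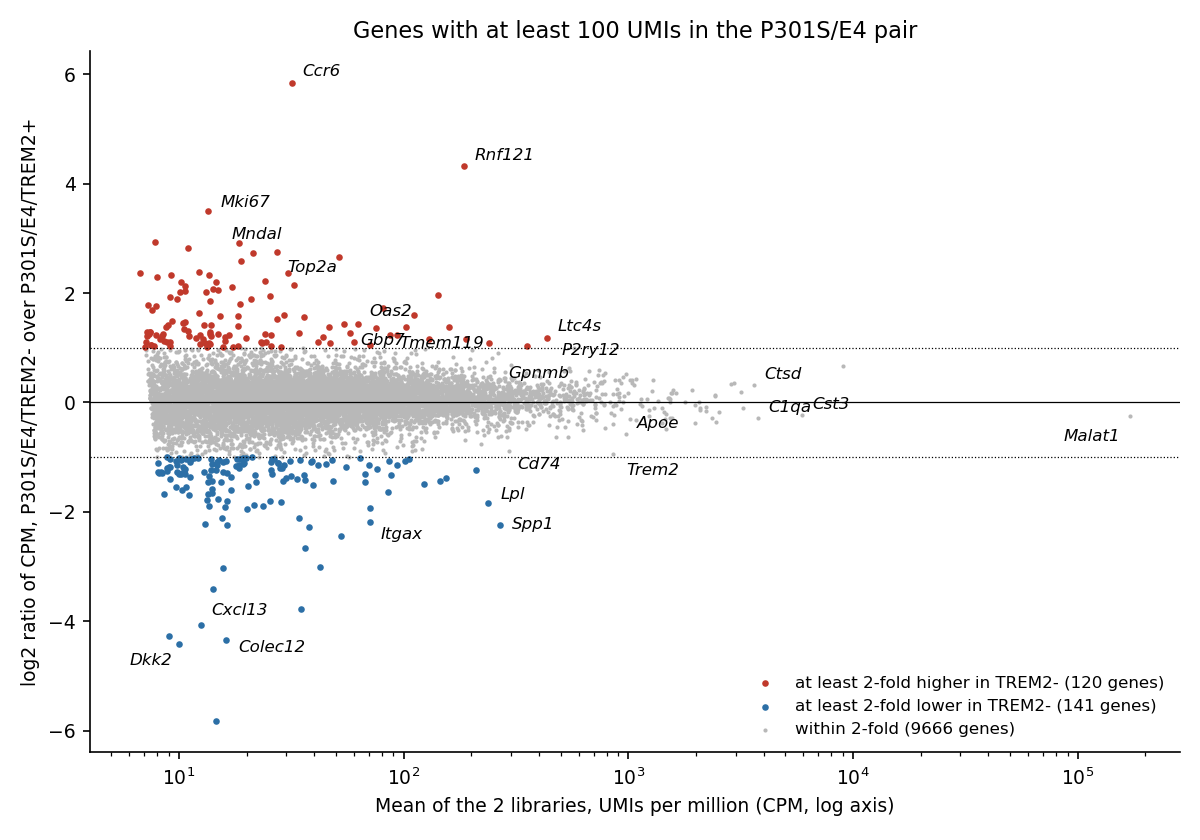
Each point is a gene with at least 100 UMIs; the x axis is the mean CPM of TREM2- and TREM2+ (log axis) and the y axis the log2 ratio of TREM2- over TREM2+, with dotted lines at 2-fold. The 120 higher genes (red) include Ccr6, Rnf121, Mki67 and Top2a, the 141 lower genes (blue) include Dkk2, Cxcl13, Spp1, Itgax and Lpl, and 9666 genes (grey) lie between the lines.

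By count, the second stage of the DAM programme had more members at least 2-fold lower in TREM2- than any other list examined. Of its 27 members, 25 reached 100 UMIs. Of these, 9 (36%) were at least 2-fold lower, beside 1.42% of all genes, and none was at least 2-fold higher. A ratio below 0 was measured for 21, beside 4203 of all 9927 genes. By share, shorter lists were higher: astrocyte markers (3 of 7), endothelial markers (1 of 2) and the list of Apoe, Mapt and Prnp (2 of 3). Their median log2 ratio was -0.69, and -0.64 after thinning, against 0.06 over all genes. Summed over the list, the level was 4139 CPM in TREM2- and 5565 CPM in TREM2+. The 9 genes were Dkk2, Spp1, Itgax, Lpl, Ch25h, Ccl6, Baiap2l2, Igf1 and Cox6a2. Of the other members, Gpnmb, Lgals3 and Gusb were above 0 and Cd63, Fabp5, Hif1a and Cadm1 were within 0.07 of 0. Clec7a is not analysed here.

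Spp1 (ENSMUSG00000029304, chr5:104435118-104441050, plus strand), which encodes the secreted phosphoprotein osteopontin, had 93.4 CPM in TREM2- and 442 CPM in TREM2+, from 732 and 2445 UMIs. Its log2 ratio was -2.24 (-2.36 to -2.12). It had 7.37 CPM in P301S/EKO/TREM2- against 28.7 CPM in P301S/EKO/TREM2+, and 0.262 CPM in E4/TREM2- against 4.39 CPM in E4/TREM2+. The TREM2- level with tau and APOE4 was thus low next to its own TREM2+ library and still above both P301S/EKO and both E4 libraries. Lpl (chr8:68880491-68907448, plus strand), the lipoprotein lipase that frees fatty acids from triglyceride, had 103 CPM in TREM2- and 372 CPM in TREM2+, a log2 ratio of -1.85 (-1.97 to -1.73). It had 34.3 CPM in P301S/EKO/TREM2- against 114 CPM in P301S/EKO/TREM2+, and 5.25 CPM in E4/TREM2- against 11.7 CPM in E4/TREM2+. Itgax, the CD11c integrin subunit, had 25.4 CPM in TREM2- and 116 CPM in TREM2+, a log2 ratio of -2.19 (-2.43 to -1.96). It had 15.4 CPM in P301S/EKO/TREM2- against 49.6 CPM in P301S/EKO/TREM2+, and 2.10 CPM in E4/TREM2- against 5.27 CPM in E4/TREM2+. All 3 genes were lower in the deleted library of every pair.

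Other members differed between the pairs. Igf1, a growth factor, had 58.2 CPM in TREM2- and 129 CPM in TREM2+, and without Apoe 3.52 CPM in P301S/EKO/TREM2- against 16.0 CPM in P301S/EKO/TREM2+, but 7.61 CPM in E4/TREM2- against 4.68 CPM in E4/TREM2+. Ch25h, which makes 25-hydroxycholesterol, had 11.4 CPM in TREM2- and 39.6 CPM in TREM2+. Ccl6, a chemokine, had 35.9 CPM in TREM2- and 98.4 CPM in TREM2+, against 47.4 CPM in P301S/EKO/TREM2- beside 49.1 CPM in P301S/EKO/TREM2+. Ccl6 thus differed between the Trem2 genotypes with APOE4 and tau and hardly at all without Apoe. Csf1, a microglial growth factor, had 144 CPM in TREM2- and 232 CPM in TREM2+, and Cst7, the inhibitor cystatin F, had 79.6 and 138 CPM; neither passed 2-fold. Dkk2, a secreted modulator of WNT signalling, had the lowest ratio of the list, with 7 UMIs in TREM2- (0.893 CPM) and 106 UMIs in TREM2+ (19.2 CPM). These ratios came from few molecules, and the log2 interval for Dkk2 ran from -5.77 to -3.33.

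The first DAM stage, which is known as TREM2-independent in amyloid models, did not shift as a group. All 12 members reached 100 UMIs, none was past 2-fold in either direction, and the median log2 ratio was -0.05. Apoe had 784 CPM in TREM2- and 1177 CPM in TREM2+, a log2 ratio of -0.59 (-0.64 to -0.54). The Apoe feature is of the mouse gene, and the sources used here do not say how reads from human APOE4 map to it. Without mutant tau it had 135 CPM in E4/TREM2- against 128 CPM in E4/TREM2+. Counts remained in the nuclei that lack Apoe, with 8.65 CPM in P301S/EKO/TREM2- against 13.5 CPM in P301S/EKO/TREM2+. Fth1, the ferritin heavy chain, had a log2 ratio of -0.64 and Cd9, a tetraspanin, -0.46. Ctsb and Ctsd, lysosomal cathepsins, had ratios of 0.24 and 0.32.

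**Figure D2:**
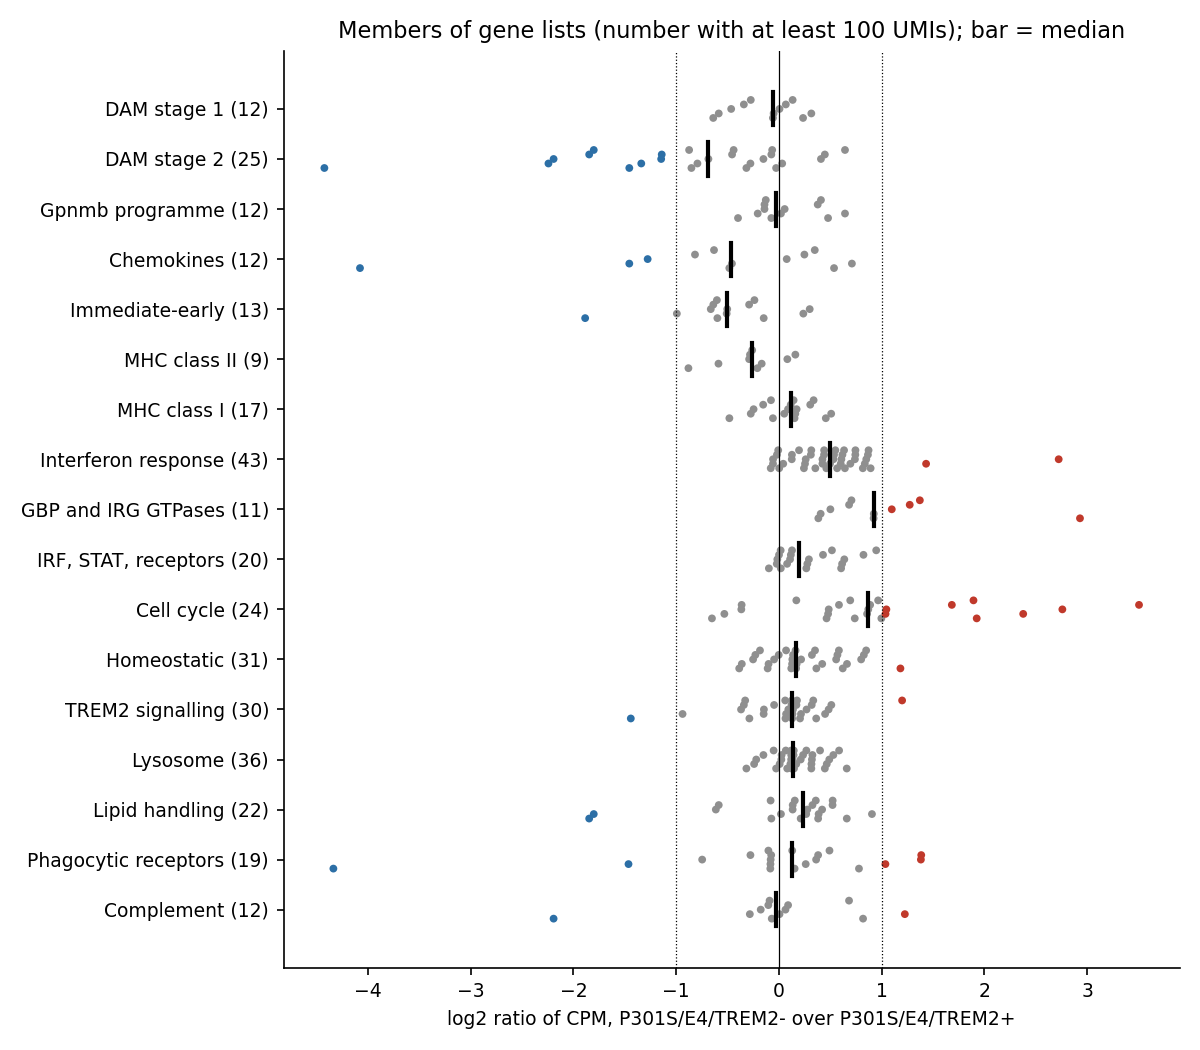
Each point is a member of a gene list with at least 100 UMIs, placed by its log2 ratio of TREM2- over TREM2+ (x axis); the black bar is the list's median, dotted lines mark 2-fold, and red and blue points lie past it. The DAM stage 2, chemokine and immediate-early lists have medians below 0 (-0.69, -0.47 and -0.51; the chemokine median turns to 0.076 with a minimum of 20 UMIs per gene), and the interferon, GTPase and cell-cycle lists have medians above 0 (0.50, 0.92 and 0.86).

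Shares of nuclei were compared after each nucleus had been thinned to 500 UMIs, a depth that every nucleus of the pair reached. At least 3 UMIs of the DAM stage 2 list were present in 33.2% (32.1 to 34.4) of TREM2- nuclei and 47.2% (45.9 to 48.4) of TREM2+ nuclei. The unthinned shares were 65.7% and 70.0%, so the gap between the libraries was smaller at full depth, where TREM2- nuclei held more UMIs. In neuron-marker nuclei of the 6 libraries the share was 3.21%, and in the 24 of the pair itself 12.5%, with an upper limit of 32.4%. Spp1 was detected in 3.76% of TREM2- nuclei and 12.1% of TREM2+ nuclei, Lpl in 4.44% and 12.3%, and Itgax in 1.26% and 5.09%. Any of these 3 genes was detected in 9.06% of TREM2- nuclei (612 nuclei) and 25.5% of TREM2+ nuclei (1543 nuclei). Exactly 1 such UMI was held by 507 of the 612 and 1040 of the 1543 nuclei. The share detected thus largely follows the level, and fewer nuclei and less RNA per nucleus cannot be told apart here.

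**Figure D3:**
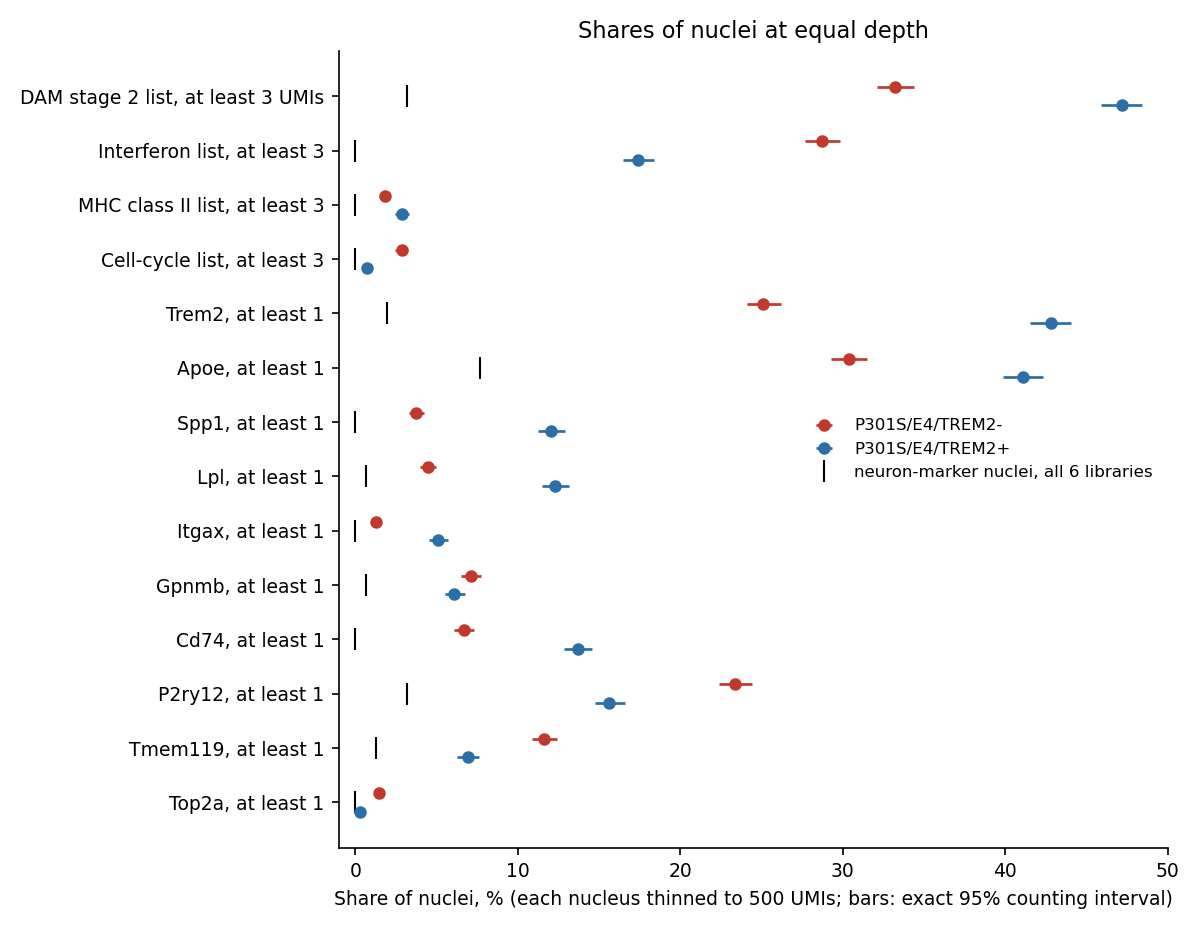
Points are shares of nuclei (x axis, %) after thinning each nucleus to 500 UMIs, in TREM2- (red, upper) and TREM2+ (blue, lower), with exact 95% counting intervals. Black ticks are 156 neuron-marker nuclei of the 6 libraries, selected to hold fewer microglia-marker than neuronal-marker UMIs. Trem2, P2ry12 and Tmem119 are among those microglia markers. DAM stage 2, Trem2, Apoe, Spp1, Lpl, Itgax and Cd74 lie lower in TREM2-, and the interferon and cell-cycle lists, P2ry12, Tmem119 and Top2a lie higher.

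Gpnmb (ENSMUSG00000029816, chr6:49036546-49070929, plus strand), a transmembrane glycoprotein of lysosomes in lipid-laden macrophages, was not lower in TREM2-. It had 304 CPM in TREM2- and 229 CPM in TREM2+, a log2 ratio of 0.41 (0.31 to 0.51) from 2386 and 1268 UMIs. Without Apoe it had 1.28 CPM in P301S/EKO/TREM2- beside 8.83 CPM in P301S/EKO/TREM2+, and without mutant tau 0.787 CPM in E4/TREM2- beside no UMI in E4/TREM2+, where 3 UMIs would be 0.878 CPM. High Gpnmb was thus measured in both P301S/E4 libraries and in neither of the other pairs. At 500 UMIs, 7.10% of TREM2- nuclei and 6.08% of TREM2+ nuclei had a Gpnmb UMI, beside 0.641% of the 156 neuron-marker nuclei and 4.17% (1 of 24, upper limit 21.1%) of those in the pair itself. The background within the pair is thus known only loosely and could reach these shares. A list of genes of lipid-laden, Gpnmb-high macrophages (15 genes, 12 with at least 100 UMIs) had a median of -0.03 with none past 2-fold. Its members spread from Mitf, a transcription factor of lysosomal genes, at -0.40 to Lgals3, the lectin galectin-3, at 0.64.

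Among the 480 TREM2- and 368 TREM2+ nuclei with a Gpnmb UMI at equal depth, second-stage genes were lower in TREM2-, as they were outside. The cut is a range and not a cell type, since 277 of the 480 and 254 of the 368 nuclei had exactly 1 Gpnmb UMI. Of 4245 genes with at least 50 UMIs in these nuclei, 2.00% were at least 2-fold lower in TREM2- and 2.76% at least 2-fold higher. Of the DAM stage 2 list, 18 genes were measured in them, leaving out Gpnmb, and 7 were at least 2-fold lower, with a median of -0.64, against -0.38 for the same genes outside. Spp1 had 336 CPM in TREM2- nuclei with Gpnmb and 1747 CPM in TREM2+ nuclei with Gpnmb, a log2 ratio of -2.38 (-2.60 to -2.16). Outside these nuclei Spp1 had 69.4 CPM in TREM2- and 340 CPM in TREM2+. Spp1 was thus lower in TREM2- inside and outside the Gpnmb-marked nuclei, and in both libraries more of it was counted inside them. Lpl had 121 CPM in TREM2- and 444 CPM in TREM2+ inside, Igf1 158 and 442 CPM, and Csf1 148 and 304 CPM. At least 1 UMI of Spp1, Lpl or Itgax was present in 20.2% (16.7 to 24.1) of the TREM2- nuclei with Gpnmb and in 45.9% (40.7 to 51.2) of the TREM2+ nuclei with Gpnmb. Outside them the shares were 8.21% and 24.2%.

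Of the list of Gpnmb-high macrophages, 11 genes were measured in those nuclei, 4 below 0 and 1 at least 2-fold higher, with a median of 0.13 against -0.19 outside. Adam33, a metalloprotease, had 781 CPM in TREM2- and 926 CPM in TREM2+ inside, where 51.6% of all its UMIs in TREM2- and 44.8% of all its UMIs in TREM2+ were counted. Ms4a7 had 559 CPM in TREM2- and 664 CPM in TREM2+. Ddhd1, a phospholipase, had 678 CPM in TREM2- against 457 CPM in TREM2+ inside, a log2 ratio of 0.57 (0.32 to 0.82), and -0.16 (-0.28 to -0.03) outside. Xdh, xanthine dehydrogenase, had 123 CPM in TREM2- against 49.9 CPM in TREM2+ inside, a log2 ratio of 1.31 (0.59 to 2.09), and 0.09 (-0.29 to 0.48) outside. Both genes had a higher ratio inside the Gpnmb-marked nuclei than outside, with counting intervals that did not overlap. They were picked after their values were seen, among 4245 genes measured there, so these intervals do not bound the result of such a choice. At least 3 Gpnmb UMIs were held by 106 TREM2- and 48 TREM2+ nuclei, so the TREM2+ set lay nearer the limit. Apoe was lower in TREM2- there too, at 965 CPM against 1672 CPM in TREM2+.

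**Figure D4:**
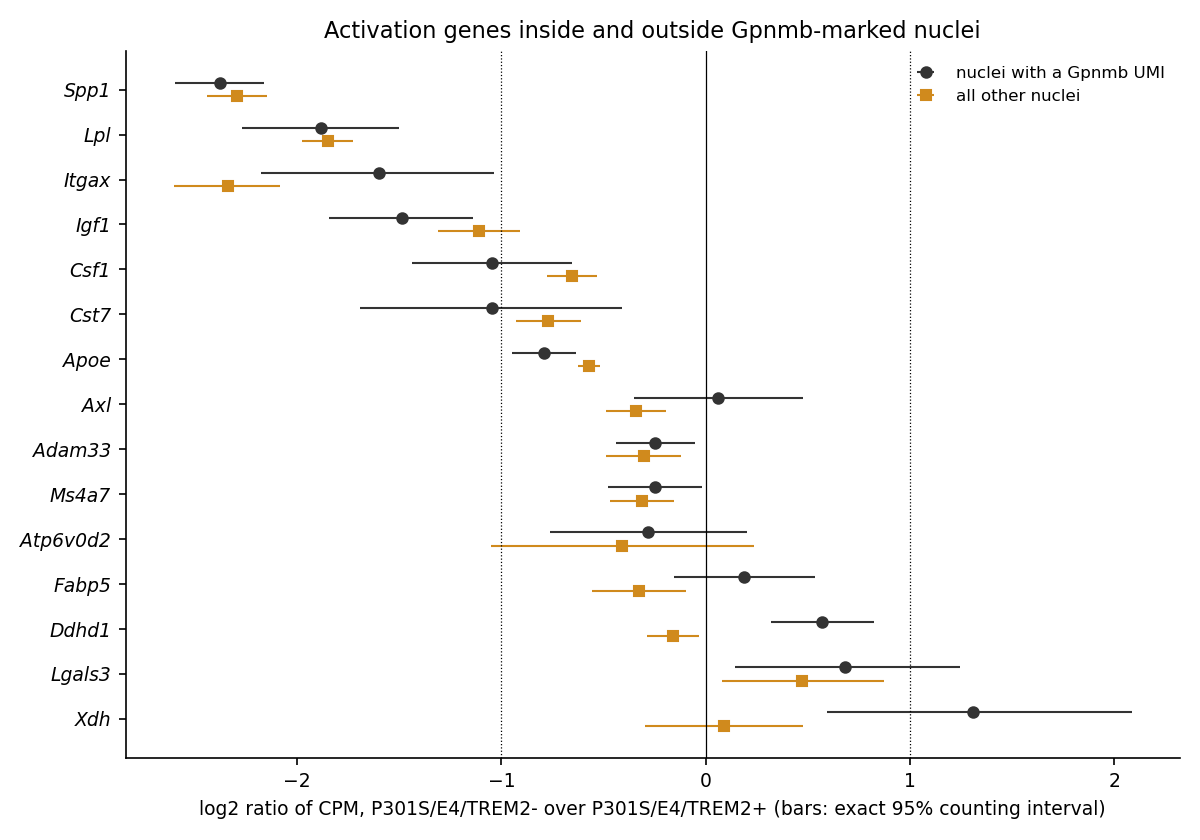
The log2 ratio of TREM2- over TREM2+ (x axis) is shown for 15 activation genes in nuclei with a Gpnmb UMI (black circles) and in all other nuclei (orange squares), with exact 95% counting intervals. Spp1, Lpl, Itgax, Igf1, Csf1, Cst7 and Apoe lie below 0 in both sets, Adam33, Ms4a7 and Atp6v0d2 lie nearer 0, and Ddhd1 and Xdh lie above 0 inside the Gpnmb-marked nuclei, against -0.16 and 0.09 in the others.

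Nuclei of both libraries were also split by a Trem2 UMI, since Trem2 RNA was still counted in TREM2-. There were 1697 TREM2- and 2589 TREM2+ nuclei with a Trem2 UMI at equal depth, in which 1.52% of 8737 genes were at least 2-fold lower and 1.34% at least 2-fold higher. The DAM stage 2 list had 9 of 24 measured genes at least 2-fold lower there, with a median of -0.57, against -0.56 in the nuclei without a Trem2 UMI. Spp1 had 96.2 CPM in TREM2- and 443 CPM in TREM2+ with a Trem2 UMI, and 92.5 CPM and 442 CPM without one. The level of Spp1 was thus alike with and without a detected Trem2 UMI in each library.

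Some chemokine and matrix genes were also lower in TREM2-. Cxcl13, a B-cell-attracting chemokine, had 1.40 CPM in TREM2- and 23.7 CPM in TREM2+, out of 11 and 131 UMIs. Of 12 chemokines measured, 3 (25%) were at least 2-fold lower (Cxcl13, Ccl6 and Cxcl14), beside 1.42% of all genes. None was at least 2-fold higher, and the median was -0.47. That median turned to 0.076 with a minimum of 20 UMIs per gene and to 0.16 with no minimum. Cxcl10, an interferon-induced chemokine, had 104 CPM in TREM2- and 71.8 CPM in TREM2+, and Ccl2, which attracts monocytes, had 26.9 and 16.5 CPM. Among 16 matrix genes, 3 were at least 2-fold lower and 2 at least 2-fold higher, beside 1.42% and 1.21% of all genes. Lox, which cross-links collagen, had 3.45 CPM in TREM2- and 28.0 CPM in TREM2+. Ccdc80, a matrix protein, had 12.9 CPM in TREM2- and 62.6 CPM in TREM2+. Without Apoe it had 16.0 CPM in P301S/EKO/TREM2- against 78.3 CPM in P301S/EKO/TREM2+, and without mutant tau 17.1 CPM in E4/TREM2- against 67.9 CPM in E4/TREM2+. Ccdc80 was therefore lower in the deleted library of all 3 pairs, with or without mutant tau and with or without APOE4. Emilin2 and Tgfbi, an elastic-fibre glycoprotein and a TGF-beta-induced matrix protein, had log2 ratios of 2.37 and 1.59.

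Immediate-early genes, the transcription factors first induced by a stimulus, had 13 members measured, with a median of -0.51. Of these, 11 were below 0, beside 4203 of all 9927 genes. Egr1 was the only 1 past 2-fold, with 10.1 CPM in TREM2- and 37.3 CPM in TREM2+. At 500 UMIs, 0.933% of TREM2- nuclei and 1.82% of TREM2+ nuclei had at least 3 UMIs of the list. In the 156 neuron-marker nuclei of the 6 libraries the share was 10.3%, and neurons can express these genes. Of the 24 in the pair itself none had 3 UMIs, which allows up to 14.2%. Hbegf, an EGF-family ligand, had 12.8 CPM in TREM2- and 55.3 CPM in TREM2+, and Gdf15, a stress-induced cytokine, had 16.7 and 3.62 CPM. Of transcription factors, Rxrg and Bhlhe40 were at least 2-fold lower, with log2 ratios of -2.24 and -1.39, while Spi1 was at -0.04.

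Genes of the interferon response were higher in TREM2-. Of 48 members of the list, 43 reached 100 UMIs. Of these, 38 had a ratio above 0, beside 5724 of all 9927 genes. At least 2-fold higher were 2 (4.65%), beside 1.21% of all genes, and none was at least 2-fold lower. The median log2 ratio was 0.50, and 0.55 after thinning. At 500 UMIs, 28.7% (27.7 to 29.8) of TREM2- nuclei and 17.4% (16.5 to 18.4) of TREM2+ nuclei had at least 3 UMIs of the list, and none of the 156 neuron-marker nuclei had. For the 24 of the pair itself a count of 0 allows up to 14.2%. The shift was of moderate size over many genes, with few genes past 2-fold.

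Antiviral effectors were among the highest. Oas2 (chr5:120730333-120749853, minus strand), which makes 2-5A to activate RNase L, had 91.8 CPM in TREM2- and 34.0 CPM in TREM2+, a log2 ratio of 1.43 from 719 and 188 UMIs. It had 48.7 CPM in P301S/EKO/TREM2- against 54.9 CPM in P301S/EKO/TREM2+, and 3.67 CPM in E4/TREM2- against 3.81 CPM in E4/TREM2+. Oas2 was thus higher with tau than without, and the Trem2 genotypes lay closer in these pairs than in the P301S/E4 pair. Mndal, a HIN-200 family gene, had 37.0 CPM in TREM2- and 5.61 CPM in TREM2+. Ifit3, which binds viral RNA complexes, had 59.3 CPM in TREM2- and 32.9 CPM in TREM2+, against 40.0 CPM in P301S/EKO/TREM2- beside 41.4 CPM in P301S/EKO/TREM2+. The helicase Dhx58, the ubiquitin ligase Rnf213 and Ifi44 had log2 ratios of 0.87, 0.89 and 0.87. Members without a difference included Isg15, a ubiquitin-like modifier, at -0.06 and Ifitm3, which blocks viral entry, at 0.04. HIN-200 genes such as Mndal have close paralogs, among which counted reads may be split.

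The interferon-inducible GTPases, the GBP and IRG families that attack vacuoles of intracellular pathogens, had 11 of 17 members measured. All 11 were above 0, with a median of 0.92, and 4 (36.4%) were at least 2-fold higher, beside 1.21% of all genes. Gbp7 had 81.3 CPM in TREM2- and 33.6 CPM in TREM2+, and Gbp9 56.5 and 26.4 CPM. Gbp8 had 108 UMIs in TREM2- and 10 in TREM2+, and Gbp3 99 and 27 UMIs. In P301S/EKO nuclei Gbp7 had 77.5 CPM in P301S/EKO/TREM2- beside 51.3 CPM in P301S/EKO/TREM2+. The GBP genes lie in clusters of near-identical copies, so counts of single members are uncertain. The signalling arm was less shifted, with none of 20 receptors, JAK, STAT and IRF genes past 2-fold and a median of 0.20. Stat2, part of the interferon-activated ISGF3 complex, had 213 CPM in TREM2- and 120 CPM in TREM2+. Irf7 and Socs3 had log2 ratios of 0.61 and 0.95, and the receptor genes Ifnar1 and Ifnar2 -0.10 and -0.02.

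Because interferon genes are known to share a promoter element, the interferon-stimulated response element, the 250 bases before the start of Ifit3 and Gbp7 are shown, from RefSeq (GRCm38.p6). Ifit3 lies at chr19:34583279-34583528 on the plus strand and Gbp7 at chr3:142530086-142530335 on the plus strand. Capitals mark matches of the element's core, GAAA repeated after any 2 bases, which here lie on the opposite strand.
Ifit3: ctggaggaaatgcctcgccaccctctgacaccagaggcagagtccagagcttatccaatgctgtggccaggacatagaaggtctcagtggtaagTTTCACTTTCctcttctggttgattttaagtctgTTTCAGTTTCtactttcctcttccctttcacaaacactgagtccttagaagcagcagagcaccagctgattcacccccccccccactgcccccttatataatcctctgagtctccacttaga
Gbp7: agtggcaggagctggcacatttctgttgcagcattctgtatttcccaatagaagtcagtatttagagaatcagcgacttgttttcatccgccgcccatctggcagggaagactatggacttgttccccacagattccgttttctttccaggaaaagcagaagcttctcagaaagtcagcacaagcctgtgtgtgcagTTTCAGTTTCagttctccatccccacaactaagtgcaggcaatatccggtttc
In windows of 250 bases before to 50 after the start, the core was present on either strand in 943 of 27025 genes, or 3.49%. It was present in 21 of 37 interferon genes with a window (56.8%), in 10 of 11 GTPase genes (90.9%) and in 1 of 19 DAM stage 2 genes (5.26%). The 22 homeostatic genes with a window held none. These are matches of letters and not measured binding.

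Nuclei with at least 3 interferon UMIs at equal depth (1941 in TREM2- and 1053 in TREM2+) were no exception in the second-stage genes. Of 7936 genes with at least 50 UMIs in them, 1.16% were at least 2-fold lower in TREM2- and 2.00% at least 2-fold higher. Of the DAM stage 2 list, 8 of 24 were at least 2-fold lower in them, with a median of -0.54, and Spp1 had 78.2 CPM in TREM2- and 387 CPM in TREM2+. A Gpnmb UMI was found in 6.08% of the TREM2- nuclei and 6.55% of the TREM2+ nuclei so marked, and outside them in 7.52% and 5.98%.

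The class II antigen-presentation genes were lower in TREM2- in level, and less clearly in shares. Of 9 members measured, 7 were below 0, beside 4203 of all 9927 genes. None was past 2-fold, and the median was -0.26, or -0.09 after thinning. Cd74 (chr18:60803848-60812652, plus strand), the invariant chain, had 207 CPM in TREM2- and 382 CPM in TREM2+, a log2 ratio of -0.88 (-0.97 to -0.79). H2-Aa, a class II alpha chain, had 77.6 CPM in TREM2- and 117 CPM in TREM2+, and H2-Eb1, a beta chain, had 80.4 and 76.0 CPM. In the E4 pair the order was the other way, with Cd74 at 190 CPM in E4/TREM2- beside 95.1 CPM in E4/TREM2+. At 500 UMIs, 1.81% of TREM2- nuclei (122 nuclei) and 2.86% of TREM2+ nuclei (173 nuclei) had at least 3 UMIs of the list. At a limit of 5 UMIs the shares were 0.962% in TREM2- and 0.777% in TREM2+, so the direction of the share depended on the limit. Class I genes had none of 17 past 2-fold, with a median of 0.12.

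The 122 TREM2- and 173 TREM2+ nuclei with at least 3 class II UMIs differed in other genes. Of these, 39 of the 122 and 96 of the 173 held exactly 3, so the TREM2+ set lay nearer the limit. In them, 3.28% of 975 measured genes were at least 2-fold lower in TREM2- and 4.51% at least 2-fold higher. Of 8 interferon genes measured in them, 5 were at least 2-fold higher, with a median of 1.19. At least 3 interferon UMIs were present in 49.2% of these TREM2- nuclei (60 of 122) and 16.2% of these TREM2+ nuclei (28 of 173), against 28.4% and 17.4% outside them. Markers of other myeloid cells were also higher there. Ccr2, a monocyte receptor, had 669 CPM in TREM2- and 147 CPM in TREM2+ inside, from 93 and 22 UMIs, and Clec12a, an inhibitory lectin of monocytes and macrophages, had 295 and 60.1 CPM. The part of monocyte-derived nuclei in these values was not tested. Spp1 had 64.8 CPM in TREM2- and 728 CPM in TREM2+ inside, from 9 and 109 UMIs.

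The promoter of H2-Aa shows the Y box, an element of class II promoters bound by NF-Y. The 250 bases before its start lie at chr17:34287824-34288073 on the minus strand (RefSeq, GRCm38.p6), and capitals mark GATTGG.
H2-Aa: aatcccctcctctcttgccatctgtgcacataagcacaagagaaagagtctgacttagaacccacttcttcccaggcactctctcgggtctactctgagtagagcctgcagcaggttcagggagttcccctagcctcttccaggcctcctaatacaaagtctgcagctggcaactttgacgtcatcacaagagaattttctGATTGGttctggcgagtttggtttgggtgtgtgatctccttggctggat
GATTGG on either strand was present in 7 of 8 class II genes with a window (87.5%) and in 16.6% of all 27025 windows. None of the 8 held the interferon element's core.

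Genes of DNA synthesis and mitosis were higher in TREM2-. Of 43 members of the cell-cycle list, 24 reached 100 UMIs, with a median of 0.86. Of these, 8 (33.3%) were at least 2-fold higher, beside 1.21% of all genes, and none was at least 2-fold lower. Mki67 (chr7:135689784-135716361, minus strand), which coats mitotic chromosomes, had 193 UMIs in TREM2- (24.6 CPM) and 12 UMIs in TREM2+ (2.17 CPM). Mki67 thus passed the minimum of 100 UMIs through TREM2- alone. Mki67 was measured in the other pairs too. It had 5.13 CPM in P301S/EKO/TREM2- against 4.41 CPM in P301S/EKO/TREM2+, and 3.41 CPM in E4/TREM2- against 2.34 CPM in E4/TREM2+. Top2a, a topoisomerase of replicating cells, had 47.7 CPM in TREM2- and 7.05 CPM in TREM2+, against 8.01 CPM in P301S/EKO/TREM2- beside 6.07 CPM in P301S/EKO/TREM2+. The TREM2- library with tau and APOE4 was thus the highest of the 6 for both genes. Knl1, a kinetochore protein, had a log2 ratio of 2.38, Hells, a chromatin helicase, 1.89, and Diaph3, a formin of cytokinesis, 1.92. Of 10 DNA-synthesis genes measured, such as the replicative helicase subunits Mcm2 and Mcm6 at 1.05 and 1.00, all were above 0 with a median of 0.81. Of 9 mitotic genes measured, 8 were above 0, with a median of 1.68. Cenpf and Stmn1 were exceptions within the cell-cycle list, at -0.37 and -0.65.

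At 500 UMIs, 2.84% of TREM2- nuclei (192 nuclei) and 0.711% of TREM2+ nuclei (43 nuclei) had at least 3 cell-cycle UMIs. With at least 5 UMIs there were 82 nuclei in TREM2- and 9 in TREM2+, and with at least 1 UMI 21.4% and 19.6% of nuclei. The difference thus lay in nuclei with several cell-cycle UMIs. The marked TREM2- nuclei had a median of 1164.5 UMIs and the marked TREM2+ nuclei 827, against 906 and 773 in the others. Interferon UMIs marked 23.4% of the TREM2- and 20.9% of the TREM2+ cycling-marked nuclei, and class II UMIs marked none of them, which allows up to 1.90% and 8.22%. These are counts of RNA and not calls of phase.

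Homeostatic microglial genes differed by gene more than as a group. Summed over the list they had 27005 CPM in TREM2- and 27071 CPM in TREM2+. Of 31 measured, 22 were above 0, beside 5724 of all 9927 genes, 1 was at least 2-fold higher and none at least 2-fold lower, with a median of 0.17 against 0.06 over all genes. Ltc4s, leukotriene C4 synthase, had 604 CPM in TREM2- and 266 CPM in TREM2+. Tmem119, a microglial surface marker, had 250 CPM in TREM2- and 144 CPM in TREM2+, against 312 CPM in P301S/EKO/TREM2- beside 303 CPM in P301S/EKO/TREM2+, and 594 CPM in E4/TREM2- beside 540 CPM in E4/TREM2+. P2ry12, a nucleotide receptor that guides microglial processes, had 527 CPM in TREM2- and 358 CPM in TREM2+. Both remained below their levels in the E4 libraries, where P2ry12 was detected in 49.0% of E4/TREM2- and 45.2% of E4/TREM2+ nuclei, against 23.4% of TREM2- and 15.6% of TREM2+ nuclei. Other genes of the list went the other way. Mef2c, a transcription factor of microglial identity, had a log2 ratio of -0.36, and the fractalkine receptor Cx3cr1 had -0.11.

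Receptors and opsonins of clearance went in both directions. Gas6, the bridging ligand of the receptors Axl and Mertk, had 149 CPM in TREM2- and 57.0 CPM in TREM2+, whereas Axl and Mertk had log2 ratios of -0.28 and -0.10. Stab1, a scavenger receptor, had 474 CPM in TREM2- and 231 CPM in TREM2+, and Cd300lf, a receptor of phosphatidylserine and ceramide, had 230 and 88.2 CPM. Colec12, a scavenger receptor of the collectin family, had 1.53 CPM in TREM2- and 30.9 CPM in TREM2+, and Cd300lb had 7.15 and 19.7 CPM. The phagocytic list thus had 2 of 19 genes at least 2-fold lower and 3 at least 2-fold higher, beside 1.42% and 1.21% of all genes. Its median was 0.13. In the complement list, C4b had 121 CPM in TREM2- and 51.9 CPM in TREM2+, while C1qa, a chain of the initiating complex, was at -0.28.

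Lysosomal and lipid genes lay mostly within 2-fold. Of 36 lysosomal genes, 30 were above 0, beside 5724 of all 9927 genes, and none was past 2-fold, with a median of 0.14. Grn, the progranulin gene, had 932 CPM in TREM2- and 646 CPM in TREM2+, and Lgmn, a lysosomal protease, 886 and 591 CPM. Of 22 genes of cholesterol and lipid handling, Lpl and Ch25h were at least 2-fold lower and the median was 0.24. The exporter genes Abcg1 and Abca1 had log2 ratios of 0.91 and 0.36, and Lrp1, an APOE receptor, 0.52. Cholesterol synthesis genes had none of 11 past 2-fold and a median of 0.01. None of 19 Toll-like receptor genes and none of 11 purinergic genes was past 2-fold. Of 30 genes of inherited Alzheimer disease risk, Clu was at least 2-fold lower at -1.33, but at -0.79 once nuclei were thinned, and Rin3, a RAB5 regulator, was at 0.92. Of inhibitory receptors, Pdcd1, which encodes PD-1, had 6.76 CPM in TREM2- and 25.3 CPM in TREM2+. Tnfaip2 was the only 1 of 20 cytokine and NF-kB genes past 2-fold, with 262 CPM in TREM2- and 118 CPM in TREM2+.

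Markers of other cell types also differed, and their part in the results was not tested unless a value is given. The 7 measured astrocyte markers were all below 0, 3 of them at least 2-fold, and all 10 listed summed to 495 CPM in TREM2- and 810 CPM in TREM2+. Clu, Aldoc and Slc1a2, which astrocytes express, were lower with them and within 2-fold after thinning, at -0.79, -0.96 and -0.77, and without astrocyte- and oligodendrocyte-marker nuclei the DAM stage 2 median was -0.68. Of 11 neuronal markers measured, 8 were below 0 with a median of -0.20, and Nrgn, a neuronal calmodulin-binding protein, was at least 2-fold lower at -1.20. All 18 neuronal markers summed to 378 CPM in TREM2- and 265 CPM in TREM2+, and Meg3 alone had 227 CPM in TREM2- and 57.9 CPM in TREM2+. Without neuron-marker nuclei Meg3 was at -0.041. Mapt, the mouse tau gene, and Prnp, the prion protein gene, had log2 ratios of -1.10 and -1.13, and whether transgene reads count toward them is not given in the sources used here. Of 9 monocyte markers measured, 1 was at least 2-fold higher, and all 14 listed summed to 404 CPM in TREM2- and 355 CPM in TREM2+, and the DAM stage 2 median without monocyte-marker nuclei was -0.69. The border macrophage list had 5 members measured, 3 of them at least 2-fold higher (Stab1, Clec12a and Cd38) and 1, Ms4a7, below 0 at -0.21. Its 12 members summed to 716 CPM in TREM2- and 434 CPM in TREM2+, and Stab1 gave most of both sums. The 12 include the 5 genes of the nucleus filter, so the filter limits these sums. A UMI of Ahnak or Cd38 was found in 306 TREM2- nuclei (4.53%) and 38 TREM2+ nuclei (0.628%). Without those nuclei the interferon median was 0.44 and the cell-cycle median 0.87. Of B-cell markers, Ebf1 and Bank1 had log2 ratios of 2.29 and 1.58, and Cd79a and Ms4a1 had 18 and 13 UMIs in TREM2- and 0 in TREM2+, where 3 UMIs would be 0.543 CPM. The T-cell genes Cd3e, Cd8a and Trac and the neutrophil genes Ly6g, Camp, Ngp and Retnlg had 0 UMIs in both libraries, but other members of these lists were counted. The 14 T- and NK-cell markers summed to 30.5 CPM in TREM2- and 11.2 CPM in TREM2+, and the only 1 with at least 100 UMIs was at 2.05. The 9 neutrophil markers summed to 547 CPM in TREM2- and 446 CPM in TREM2+, with Csf3r at 0.29.

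Some of the largest ratios belonged to genes outside these programmes, and their values differed between the pairs. Ccr6 (chr17:8236043-8257141, plus strand), a chemokine receptor, had 489 UMIs in TREM2- and 6 in TREM2+, or 62.4 and 1.09 CPM. It had 71.4 CPM in P301S/EKO/TREM2- against 1.65 CPM in P301S/EKO/TREM2+, but 3.67 CPM in E4/TREM2- against 51.5 CPM in E4/TREM2+. Rnf121 (chr7:102019137-102065469, minus strand), a ubiquitin ligase of the endoplasmic reticulum, had 354 CPM in TREM2- and 17.7 CPM in TREM2+. It had 225 CPM in P301S/EKO/TREM2- against 287 CPM in P301S/EKO/TREM2+, and 287 CPM in E4/TREM2- against 89.0 CPM in E4/TREM2+, so the TREM2+ library of the pair was the low one among the 6. For both genes the direction differed between the pairs. Hal, histidine ammonia-lyase, had 32.5 CPM in TREM2- and 4.34 CPM in TREM2+, and at most 2.89 CPM in the other 4 libraries.

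Among the lowest ratios, Gm17430 and Colec12 overlap. Gm17430, a processed pseudogene at chr18:9726205-9726670 on the minus strand, lies inside Colec12 (chr18:9707595-9882644, plus strand). Gm17430 had 4 UMIs in TREM2- and 159 in TREM2+, and whether its reads came from Colec12 transcripts cannot be told apart here. St8sia6, a sialyltransferase, had 4.72 CPM in TREM2- and 65.1 CPM in TREM2+, and without Apoe 5.77 CPM in P301S/EKO/TREM2- against 26.8 CPM in P301S/EKO/TREM2+. Flt1, a VEGF receptor, had 9.32 CPM in TREM2- and 75.4 CPM in TREM2+, and without Apoe 4.49 CPM in P301S/EKO/TREM2- against 16.3 CPM in P301S/EKO/TREM2+. Of the other endothelial markers, Pecam1 was at 0.19, and Cldn5 had 5 UMIs in TREM2- and 1 in TREM2+. The 9 listed endothelial markers, Flt1 among them, summed to 41.9 CPM in TREM2- and 100 CPM in TREM2+. The part of endothelial nuclei in the Flt1 values was not tested. Etl4 had 16.3 CPM in TREM2- and 89.3 CPM in TREM2+. St8sia6, Flt1 and Etl4 were low in both E4 libraries, at 8.14 CPM or less.

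**Figure D5:**
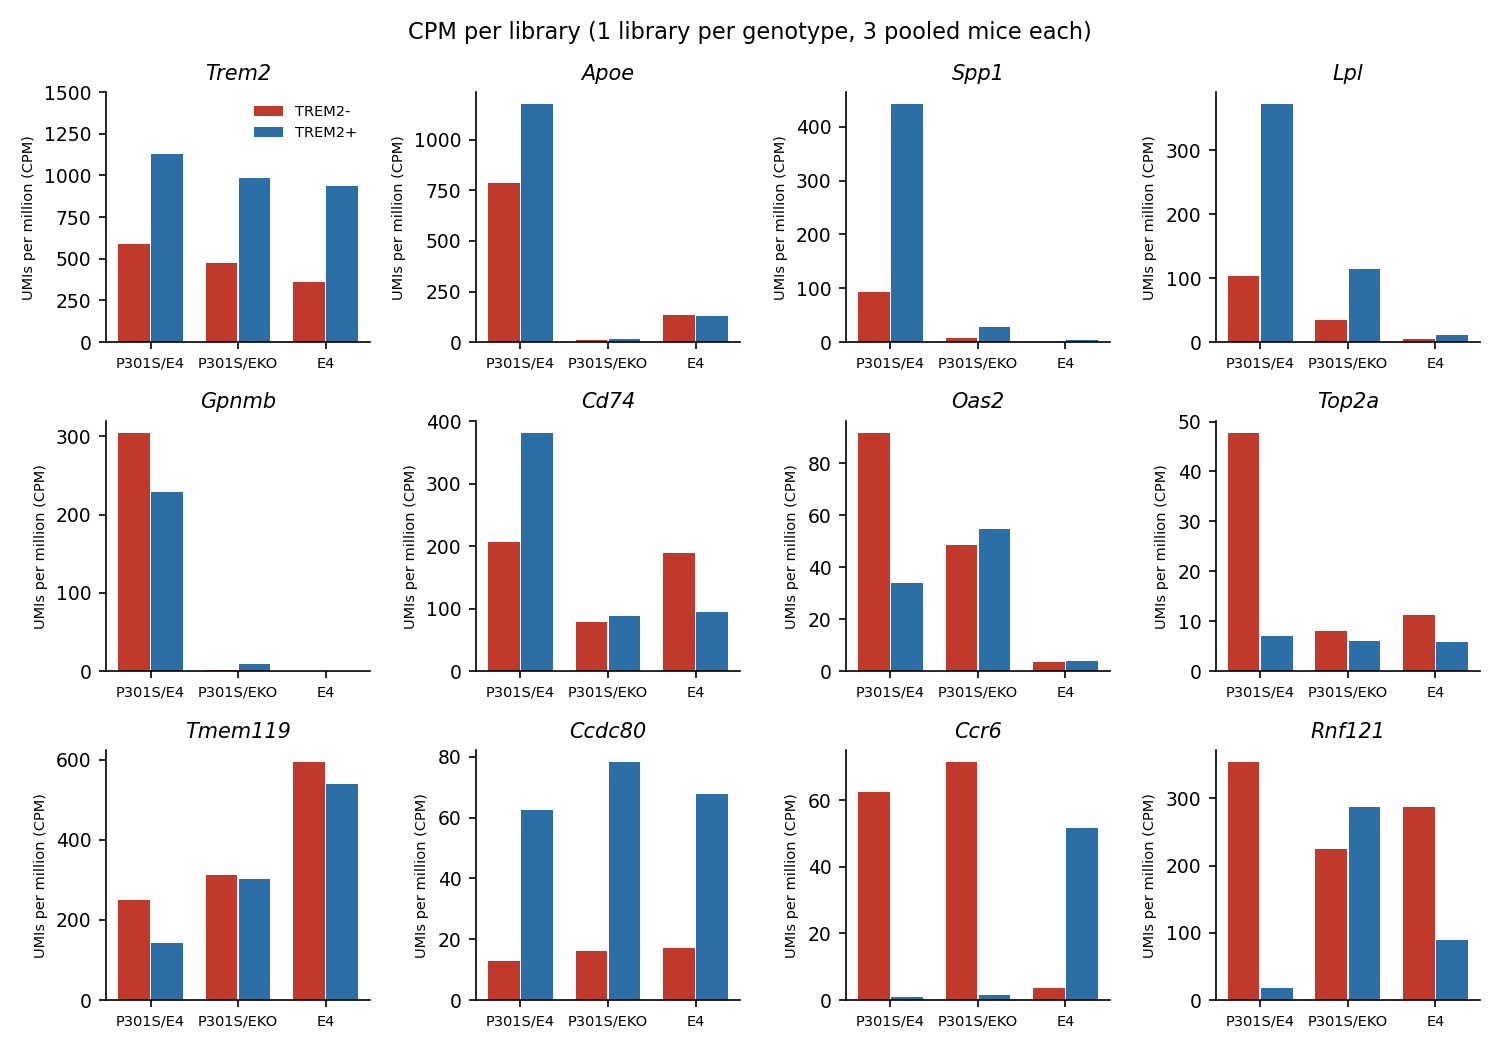
Bars are CPM of 12 genes (y axis) in the P301S/E4, P301S/EKO and E4 pairs, with TREM2- in red left of TREM2+ in blue; each bar is 1 library of 3 pooled mice and carries no error bar. Trem2, Spp1, Lpl and Ccdc80 are lower in TREM2- in each pair, Gpnmb is high only in the P301S/E4 pair, and Ccr6 is higher in TREM2- of both P301S pairs and lower in E4/TREM2-.

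The authors' deposited table compared the same libraries over nuclei, as TREM2+ over TREM2-, so that a positive value there means lower in TREM2-. It listed 16055 genes, of which 197 had an adjusted p of 0.05 or less. Nuclei of 1 pool are not independent animals, so those p-values do not describe the spread between mice. Of these genes, 195 were measured with at least 100 UMIs here, all in the same direction as in the authors' deposited table. Both sets of values come from the same libraries, so the shared direction is not a separate check. Of the 195, 142 lay within 2-fold here. In turn, of 260 genes past 2-fold here, 53 had an adjusted p of 0.05 or less there. Mki67, Top2a, Gbp7, Oas2 and Ccr6 were not among the 53. In the authors' deposited table Lpl had a log fold change of 1.70, Itgax 1.64, Cd74 1.35, Gpnmb -0.51 and Rnf121 -4.10. The log base is not stated there, so these sizes cannot be set against the log2 ratios above.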

How the data were processed

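Nuclei sorted for PU.1 were sequenced from 6 pools of 3 mice. The sort also excluded doublets, per the labels' protocol. The deposited matrices hold whole-number UMI counts per gene and nucleus, made with Cell Ranger 3.0.1 per the file headers and with the mm10 build per the submitters' processing notes. The authors' deposited table of this comparison holds a log fold change of unstated base, kept as a score, and p-values over nuclei. No doublet caller was run here.

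Counts were summed over the kept nuclei of each library and divided by its total. Genes with at least 100 UMIs over the pair were compared, with 2-fold as the limit for a call. Because this minimum is on the sum, a sparse gene can pass it through the library where it is high. Gbp8, Mki67 and Dkk2 did so, and this can raise the share of a list past 2-fold. Exact 95% binomial intervals on the share of a gene's UMIs gave the intervals of the ratios, and exact (Clopper-Pearson) intervals those of shares. Both cover counting error only. Shares used nuclei thinned to 500 UMIs (seed 1), with at least 3 UMIs of a list or 1 of a gene. Nuclei with at least 10 neuronal-marker UMIs, and more of these than of microglia-marker UMIs, gave the background. That selection can lower the background of microglial genes. With 1 library per group there is no test. The members and gene lists were chosen with earlier results of these data known.

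Genes were named by rule: the 12 highest and 12 lowest ratios, the 10 largest CPM differences each way, up to 4 members furthest from 0 in each list, and Trem2, Tyrobp, Apoe, Mapt, Prnp, Gpnmb, Spp1, Lpl, Itgax, Cd74, P2ry12 and Tmem119. Other genes named, and genes described within marked nuclei, were chosen after their values were seen. Coordinates are from GENCODE vM21 (GRCm38). Clec7a, Treml6, Mx2 and Cfap299 are not analysed here, and some other genes that the rule or lists hold are not reported here. Alternatives covered scaling, depth, filters on nuclei and genes, and removal of nuclei with markers of other cells; 3 were added after seeing the data. Python 3.11.15, numpy 2.4.6, pandas 2.3.3, scipy 1.17.1 and edgeR 4.0.16 (for TMM factors) were used, and the scripts were tested on simulated data.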

Additional observations from a re-analysis of the deposited data

Results flagged for a closer look

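For 7 named genes the ratio of TREM2- over TREM2+ had the opposite sign in another pair, past 2-fold in both and with at least 20 UMIs. These differences between pairs were not tested, since each group is 1 pool. Ccr6 had a log2 ratio of 5.85 in the P301S/E4 pair and -3.81 in the E4 pair. Trpc4, a cation channel, had -4.27 in the P301S/E4 pair and 1.43 in the E4 pair. Ebf1, a B-cell transcription factor, had 2.29 in the P301S/E4 pair and -1.27 in the E4 pair, and Gm12166 had 2.66 and -1.12. Against the P301S/EKO pair, Diaph3 had 1.92 in the P301S/E4 pair and -1.37 without Apoe. Colec12 had -4.34 in the P301S/E4 pair and 1.58 in the P301S/EKO pair, and Hbegf had -2.12 and 1.62.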

How the results depend on the processing

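Across 20 other settings, 176 main values (counts past 2-fold, list medians and ratios of shares) were recomputed. Of these, 156 stayed within 1.5 times the count or within a band around the median or ratio, and 20 did not. For a list median the band ran between the medians of its members' interval limits, which is not an interval of the median. For a ratio of shares it ran between ratios of opposite limits, which is wide. Within these bands medians still moved by over 1.5 times. The class II median of -0.26 was -0.092 after thinning, -0.16 with equal weight per nucleus and -0.40 at no more than 1% mitochondrial UMIs. With 10 CPM added the cell-cycle median was 0.51 and the GTPase median 0.51. No paired analysis was possible because each group has 1 library and the labels carry no shared replicate numbers, and for the same reason no replicate could be left out. Leaving out nuclei over 2 times the median UMI gave 89 lower genes and a DAM stage 2 median of -0.57. A minimum of 20 UMIs per gene gave 457 lower and 429 higher genes, no minimum gave 2241 and 2662, and 10 CPM added to both gave 44 and 43. The ratio of DAM stage 2 shares was 0.704, and became 0.939 without thinning, 0.937 with at least 1 UMI, 0.574 with at least 5 and 0.857 at 1000 UMIs. The interferon ratio of 1.65 became 1.17 with at least 1 UMI, 1.86 with at least 5 and 1.40 at 1000 UMIs. The cell-cycle ratio of 4.00 became 1.09 with at least 1 UMI and 8.16 with at least 5. The class II ratio of 0.631 became 1.24 with at least 5 UMIs, 0.347 at 1000 UMIs and 0.415 with a minimum of 500 genes. Without neuron-marker nuclei Meg3 reversed to -0.041, and the chemokine median reversed to 0.076 with at least 20 UMIs per gene and 0.16 with no minimum. The causes were not tested. Of 1102 recomputed values of the 69 named genes past 2-fold, 1032 stayed past it.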

Other observations

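Genes past 2-fold were also counted by chromosome, beside 1.42% lower and 1.21% higher over all genes. On chromosome 17, which carries Trem2, 4 of 511 measured genes were at least 2-fold lower in TREM2- and 8 at least 2-fold higher, among them Ccr6, Treml1 and C4b. On chromosome 18, 9 of 250 were at least 2-fold lower (3.6%) and 1 at least 2-fold higher, and the lower ones included Colec12, Egr1, Hbegf and Lox.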
